A study of Mus musculus with 26 samples.

Results

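Hif3a and 9 genes of the hypoxia-inducible factor (HIF) system were examined in cultured mouse neural stem and progenitor cells. The set holds the HIF alpha subunits Hif3a, Hif1a and Epas1, the beta subunits Arnt and Arnt2, the oxygen sensors Egln1, Egln2, Egln3 and Hif1an, and Vhl. These are 10 of the 19505 genes tested, and each is read by 1 transcript cluster, the array's summary of all probes of a gene. Hif3a was selected on its response to dexamethasone (Dex, a synthetic glucocorticoid) in the knockout cells and on the difference of that response between genotypes. The other 9 were added for their place in the pathway. The Dex values of all members are therefore given as a description, with errors and intervals but no p, and where a count of called genes stands beside them it is read as no support. Tests are given for the comparison of genotypes.

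The cells came from the telencephalon of C57BL/6 mice, at a stage that the labels give as postnatal day 0 and also call embryonic and fetal, and were grown with EGF and FGF-1, with the cultures of each animal kept apart. After passage 3, wild-type (WT) cultures 1 to 6 and SOX2 knockout (SOX2 KO) cultures 7 to 13 received 100 nM Dex or the ethanol vehicle for 4 h, which gave 1 vehicle array and 1 Dex array per culture and 26 arrays in all. The cultures hold both sexes, and the sex of single arrays and the way Sox2 was deleted are not given in the sources used here. Each array carried biotin-labelled cRNA in 1 colour, and the values were taken as log2 levels.

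HIF is a dimer of an alpha and a beta subunit, both proteins of the bHLH-PAS family, that binds DNA at a short core and turns on genes of oxygen supply and sugar breakdown. When oxygen is present, the prolyl hydroxylases encoded by Egln1, Egln2 and Egln3 mark the alpha subunits, and the Vhl protein then brings them to ubiquitination and decay, while the asparaginyl hydroxylase encoded by Hif1an keeps them from their coactivators. Hif3a is made in several isoforms, some of which lack the domain that activates transcription and restrain the other alpha subunits. Much of this control acts on protein, which arrays do not measure, and 1 transcript cluster per gene does not separate isoforms.

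The arrays followed their genotype labels. Sox2 lay between 12.17 and 14.39 on the 12 WT arrays and between 3.92 and 6.50 on the 14 SOX2 KO arrays. One WT culture went against its treatment labels: in culture 4 all 17 glucocorticoid-induced reference genes were lower on the array labelled Dex than on the array labelled vehicle, with a difference of -2.03 for Fkbp5 and -2.74 for Per1. The labels were kept, and results are given with and without culture 4. The Dex array of culture 12 (SOX2 KO) also stood apart, with the lowest upper quartile of all arrays (9.38, against a highest of 10.43). After removal of group means, the profiles were cut into 3 clusters of cultures, a number that was set and not found in the data. The first holds cultures 1, 2, 3, 7 and 8, the second cultures 4, 10 and 12, and the third cultures 5, 6, 9, 11 and 13. Each holds both genotypes. Of 11 measured neural stem and progenitor markers, 10 had a median position above the middle of the array, and Sox2 was the exception. Also above the middle were 5 of 6 astrocyte, 3 of 5 oligodendrocyte lineage, 3 of 9 neuron and 2 of 8 pericyte and fibroblast markers, but none of 8 endothelial and none of 8 microglial markers. Between genotypes, markers other than Sox2 that passed were the neuronal Syt1, a synaptic vesicle gene, lower in SOX2 KO by limma in vehicle (-1.59 ± 0.34, adjusted p = 0.0149) and in Dex (-1.42 ± 0.34, adjusted p = 0.0399, or 0.0673 without culture 4), and the astrocytic Slc1a2. Their part in the results below was not tested, and no marker of any list passed the test for Dex in either genotype. In such cultures a change in the share of a cell type and a change of RNA per cell cannot be told apart.

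Hif3a was higher with Dex in every culture except culture 4, and more so without SOX2. In WT vehicle its level ran from 4.83 to 7.28 with a median of 5.15 (mean 5.52 ± 0.92, SD, n = 6). In WT Dex it ran from 5.70 to 7.45 with a median of 6.63 (mean 6.55 ± 0.63, SD, n = 6). These groups overlapped through culture 4, which held 7.28 in vehicle and 5.70 in Dex. Without it, the WT vehicle arrays reached 5.74 at most and the WT Dex arrays began at 6.02. In SOX2 KO vehicle the level ran from 4.38 to 5.75 with a median of 5.19 (mean 5.24 ± 0.50 SD, n = 7). In SOX2 KO Dex it ran from 7.61 to 8.73 with a median of 8.26 (mean 8.15 ± 0.39, SD, n = 7). Every SOX2 KO Dex array thus lay above all other arrays, the nearest being the WT Dex array of culture 3 at 7.45.

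**Figure D1:**
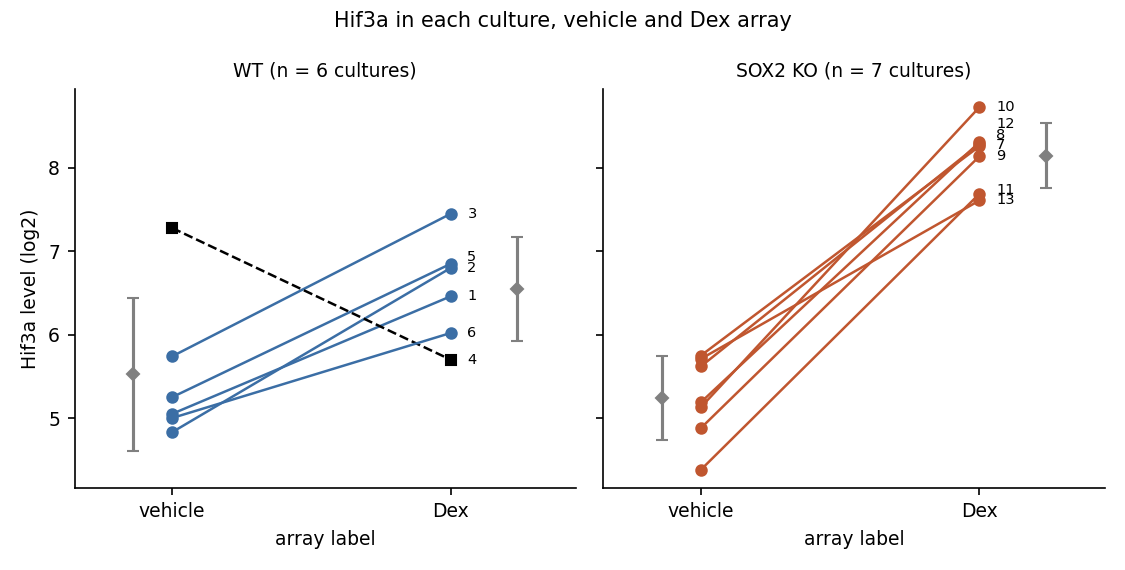
Hif3a level (log2) on the vehicle and the Dex array of each culture, joined by a line and numbered by culture, for WT (left) and SOX2 KO (right). Grey diamonds with bars show the mean ± SD of all cultures, and the dashed black line is culture 4, which goes from 7.28 to 5.70 while the other 12 cultures go up.

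Within cultures, the Dex minus vehicle difference of Hif3a in WT was 1.41 in culture 1, 1.97 in culture 2, 1.71 in culture 3, -1.58 in culture 4, 1.60 in culture 5 and 1.02 in culture 6. In SOX2 KO the 7 differences ran from 1.90 in culture 13 to 3.60 in culture 10, with a median of 3.12. A single SOX2 KO culture, number 13, lay within the WT range, below the 1.97 of culture 2. The mean difference was 1.02 ± 0.34 (SE, n = 6) in WT, while a fit that drops culture 4 and blocks by culture gave 1.54 ± 0.21. For the 7 SOX2 KO cultures the mean was 2.91 ± 0.31 (SE), with an SE of 0.18 in that blocked fit. These SE come from a spread pooled over both genotypes, and blocking all cultures left them at 0.34 and 0.31. The differences themselves had an SD of 1.31 in WT and 0.58 in SOX2 KO. As folds the means are 2.91-fold in WT without culture 4 and 7.52-fold in SOX2 KO. Both start from a low vehicle level, at a median percentile of the array of 27.6 in WT without culture 4 and 29.2 in SOX2 KO. How much of that level is background was not tested, so the folds are uncertain. The difference between genotypes was 1.89 ± 0.46 on the log2 scale, and 1.37 ± 0.28 in the blocked fit that drops culture 4. Within the array clusters it was 0.89 in the first (3 WT and 2 SOX2 KO cultures) and 1.51 in the third (2 and 3 cultures), while in the second the sole WT culture is number 4.

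These are the values on which Hif3a was picked, so the calls beside them add no support. In SOX2 KO, 0.0513% of all genes passed the adjusted p threshold of 0.05 for Dex in the fit to all arrays, and Hif3a was among these 10 genes. In WT, 0% passed by limma (188 genes had an unadjusted p under 0.05), and for the difference of the Dex effects 0% passed as well (140 genes unadjusted). In the blocked fit that drops culture 4, 0.169% passed in WT and 0.251% in SOX2 KO, Hif3a among them in both, and for the difference again 0%.

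Set beside 17 genes known to be induced by glucocorticoids, the Dex difference of Hif3a in SOX2 KO was exceeded by 1 gene, Fam107a, an actin-binding protein gene (4.54). In WT without culture 4 it was exceeded by 7 of the 17, Fam107a again first (5.42). The difference between genotypes was smaller for every one of the 17 than the 1.37 of Hif3a, and the next was Mt2, a metallothionein gene, at 1.10. Hif3a was picked on this difference and on its Dex response in SOX2 KO, so its place among the 17 adds no support. Per1, a clock gene with a direct glucocorticoid response, had 2.35 in WT and 1.92 in SOX2 KO. Klf9, a zinc finger gene, had 2.05 and 2.24, and Tsc22d3, the gene of the leucine zipper protein GILZ, had 1.60 and 1.05. Over the 17 the median difference between genotypes was 0.21, and 7 of the 17 were below 0.

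The sequence before the Hif3a start is shown because the HIF core, which reads ACGTG or GCGTG, lies in it. The 250 bases before the annotated start are given 5′ to 3′ along each gene's own strand (RefSeq, GRCm38.p6), with every match to either core on either strand in capitals, beside those of Hif1a, of Egln3, itself a known HIF target, and of Klf9, whose levels were most like those of Hif3a.

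Hif3a (chr7:17062428-17062677, minus strand): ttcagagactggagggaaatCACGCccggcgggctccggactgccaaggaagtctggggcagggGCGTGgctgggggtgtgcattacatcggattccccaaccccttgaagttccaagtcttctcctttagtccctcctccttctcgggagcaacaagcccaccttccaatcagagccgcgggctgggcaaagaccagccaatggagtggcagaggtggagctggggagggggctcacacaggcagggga

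Hif1a (chr12:73907617-73907866, plus strand): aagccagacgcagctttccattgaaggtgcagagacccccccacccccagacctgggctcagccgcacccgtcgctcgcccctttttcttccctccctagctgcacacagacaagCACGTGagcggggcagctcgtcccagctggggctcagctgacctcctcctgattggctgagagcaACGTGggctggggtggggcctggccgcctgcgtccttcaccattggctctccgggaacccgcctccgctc

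Egln3 (chr12:54203875-54204124, minus strand): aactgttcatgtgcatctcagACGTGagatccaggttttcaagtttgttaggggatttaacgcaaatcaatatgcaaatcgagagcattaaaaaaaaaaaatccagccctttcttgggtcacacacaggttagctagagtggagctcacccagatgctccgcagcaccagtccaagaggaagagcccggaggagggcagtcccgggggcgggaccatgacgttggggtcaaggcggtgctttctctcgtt

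Klf9 (chr19:23140976-23141225, plus strand): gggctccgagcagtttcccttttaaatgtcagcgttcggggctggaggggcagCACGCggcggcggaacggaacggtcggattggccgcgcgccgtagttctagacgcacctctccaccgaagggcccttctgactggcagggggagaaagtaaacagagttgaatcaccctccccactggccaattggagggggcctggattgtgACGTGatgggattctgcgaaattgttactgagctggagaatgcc

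The Hif3a window held 2 matches, both to GCGTG, that begin 230 and 186 bases before the start. In Hif1a the matches were to ACGTG, at 135 bases, where the letters read the same on both strands, and at 70 bases. Egln3 held 1 match to ACGTG at 229 bases, and Klf9 held GCGTG at 197 and ACGTG at 44 bases. A window was found for 9 of the 10 members, and 6 of the 9 held a core. Such short motifs are common: 38.6% of all 32851 windows of this length held at least 1 core, 16.6% held ACGTG and 28.2% held GCGTG. A core of the binding site of the glucocorticoid receptor, TGTTCT, was found on one strand or the other in 16.1% of all windows and in 0 of the 9 members. These matches describe letters, and none of them was tested for binding.

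Hif1a and Epas1, which encode the other alpha subunits, did not share the rise of Hif3a. Hif1a, the broadly expressed subunit, had medians of 13.95 in WT vehicle, 13.93 in WT Dex, 13.68 in SOX2 KO vehicle and 13.94 in SOX2 KO Dex, and the 4 groups overlapped throughout a span from 13.02 to 14.64. Its Dex minus vehicle difference for WT was -0.03 ± 0.27 (SE), and for SOX2 KO it was 0.05 ± 0.25. The 95% interval in the latter ran from -0.45 to 0.55, and from -0.19 to 0.29 with the culture as a block. Within WT cultures other than culture 4 its differences lay between -0.07 and 0.06.

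Epas1, the alpha subunit best known from endothelium and glia, varied more from culture to culture than with treatment. Its culture means spanned 2.18 log2 units, from 6.25 in culture 6 to 8.43 in culture 2, and single arrays lay between 5.95 and 8.58. Dex minus vehicle was -0.19 ± 0.39 in WT, where 5 of the 6 cultures were lower and culture 6 was higher by 0.60. In SOX2 KO it was 0.24 ± 0.36, with 5 of 7 cultures higher and values from -0.52 to 1.22.

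The beta subunits, whose arrays lay between 9.25 and 11.15 for Arnt and between 10.71 and 12.53 for Arnt2, overlapped between vehicle and Dex in both genotypes. Arnt, the common partner of the alpha subunits, had a difference of 0.18 ± 0.26 in WT and of -0.16 ± 0.24 in SOX2 KO. The latter rests on culture 12, where the Dex array was lower by 1.56. The other 6 SOX2 KO cultures lay between -0.25 and 0.26, and their mean was 0.08. Arnt2, the partner most abundant in neural tissue, had differences of -0.05 ± 0.25 and -0.14 ± 0.23, with 5 of 7 SOX2 KO cultures lower.

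**Figure D2:**
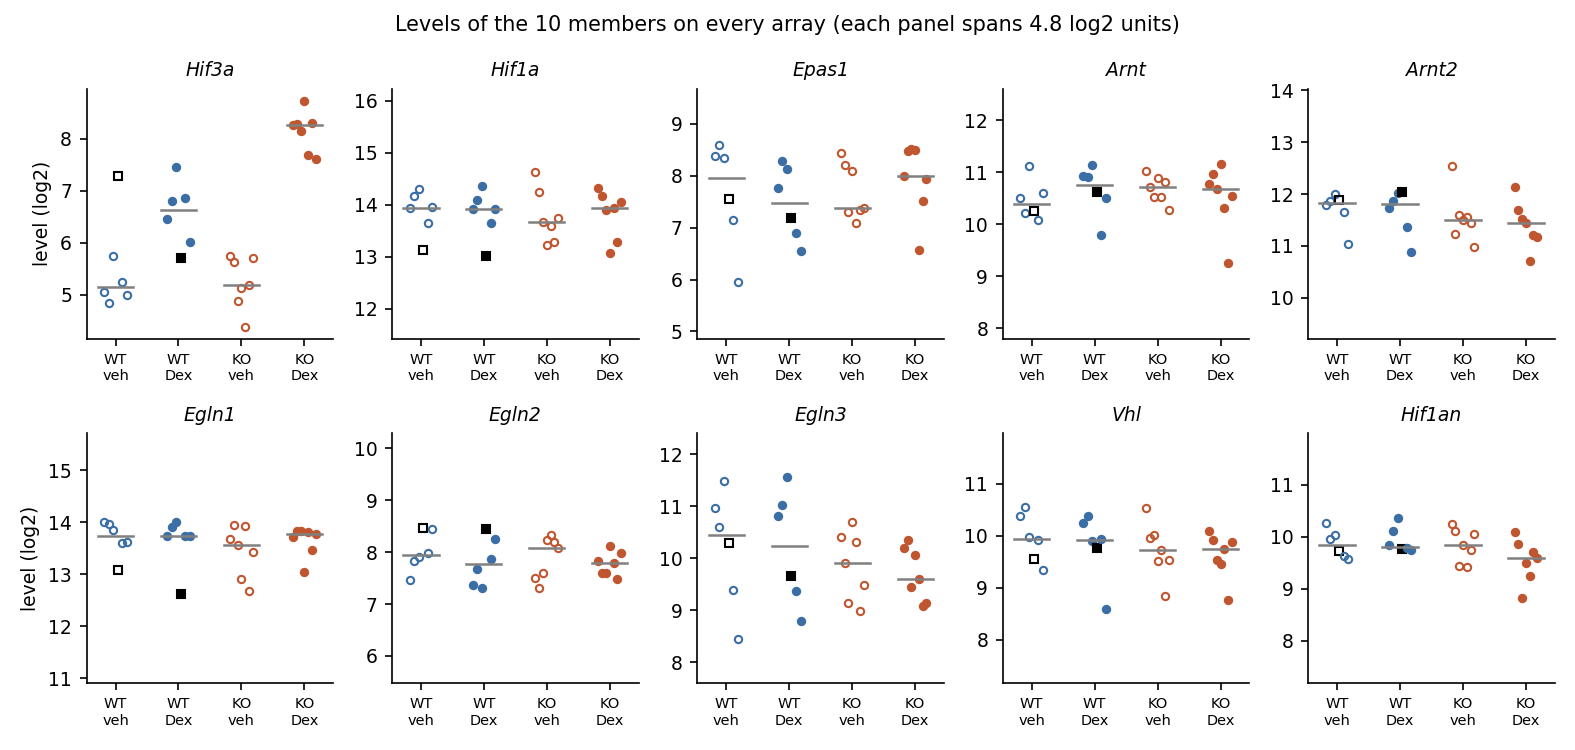
Level (log2) of each member on every array, by genotype (WT blue, SOX2 KO orange) and treatment (vehicle open, Dex filled), with culture 4 as black squares and the group median as a grey line. Panels share a span of equal length but not a zero, since levels of different genes are read by different probes. Hif3a in SOX2 KO Dex (7.61 to 8.73) is the only group that separates from the other 3 groups of its gene. These arrays took part in its selection, and how many of all genes hold such a group was not counted.

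Of the prolyl hydroxylases, Egln1, the main oxygen sensor for the HIF alpha subunits, had a Dex difference of -0.06 ± 0.24 in WT and of 0.19 ± 0.22 in SOX2 KO. Its lowest levels, 12.63 and 12.68, were those of the array labelled Dex in culture 4 and of a SOX2 KO vehicle array. Egln2, a sister enzyme with levels between 7.31 and 8.46, was lower in all 6 WT cultures, by 0.01 to 0.60, with a mean of -0.20 ± 0.23 (SE), and lower in 4 of 7 SOX2 KO cultures (-0.12 ± 0.21). Egln3, which HIF itself induces in many cells, had means of 0.01 ± 0.45 and -0.15 ± 0.41. It showed the widest spread between cultures of the 10 members, from 8.62 in culture 6 to 11.52 in culture 3, while its Dex minus vehicle differences within cultures stayed between -0.72 and 0.44.

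Vhl, the substrate-binding part of the ubiquitin ligase, was at -0.16 ± 0.29 in WT and -0.11 ± 0.27 in SOX2 KO, with levels from 8.58 to 10.56 over all arrays. Hif1an was the sole one of the other 9 with the same direction in 7 of 7 SOX2 KO cultures, lower by 0.03 to 0.62, with a mean of -0.29 ± 0.19 (SE, 95% interval -0.68 to 0.10). Since the arrays are pairs, the interval with the culture as a block is the closer one, and it ran from -0.54 to -0.04, or from -0.55 to -0.03 without culture 4. These intervals are not adjusted for the number of genes. In the same fits 10.2% and 9.74% of all genes had an unadjusted p under 0.05 by limma. In WT it was higher in 5 of 6 cultures, with a mean of 0.07 ± 0.21. The SOX2 KO groups still overlapped, with 9.42 to 10.24 in vehicle and 8.82 to 10.09 in Dex. The difference between the genotypes was -0.36 ± 0.28, and -0.37 ± 0.19 in the blocked fit that drops culture 4. How many of all genes kept 1 direction in 7 of 7 SOX2 KO cultures was not counted.

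None of the 9 members beside Hif3a was among the genes called for Dex in WT, in SOX2 KO or in the difference, in fits that called 0%, 0.0513% and 0% of all genes. The same held in the blocked fit that drops culture 4 (0.169%, 0.251% and 0%). At such low shares a count of 0 among 9 genes says little. The errors given above for the 9 leave the pairing aside. With the culture as a block they ran from 0.11 (Hif1a in SOX2 KO) to 0.20 (Arnt in WT), against 0.19 (Hif1an in SOX2 KO) to 0.45 (Egln3 in WT) without it, and Hif1an in SOX2 KO was the sole one of the 9 whose blocked interval left out 0. The median of the 10 members was -0.04 in WT and -0.12 in SOX2 KO, beside medians over all genes of 0.003 and -0.02.

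**Figure D3:**
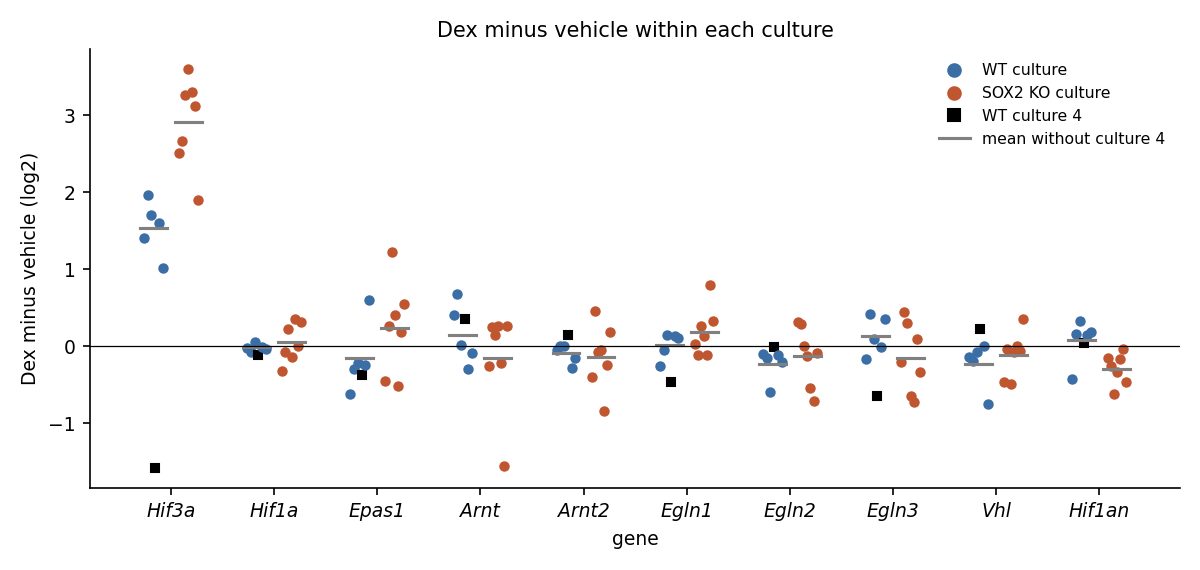
Dex minus vehicle (log2) within each WT culture (blue) and SOX2 KO culture (orange) for the 10 members; black squares are culture 4 and grey lines the means without it. Hif3a lies at 1.02 to 1.97 in the 5 other WT cultures and at 1.90 to 3.60 in SOX2 KO, while the other 9 genes scatter about 0, with Arnt in culture 12 at -1.56.

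Loss of SOX2 was next compared within each treatment. Without Dex, the Hif3a level did not pass the test between genotypes: it was -0.29 ± 0.32 (SE) in SOX2 KO against WT, with an adjusted p of 1 by limma over all 19505 genes and a 95% interval from -0.95 to 0.37. Culture 4 set the sign, since without it the difference was 0.06 ± 0.26 (adjusted p = 0.995 by limma). This comparison shares its vehicle arrays with the values that picked Hif3a. Hif3a also lay low on these arrays, at median percentiles of 29.9 in WT and 29.2 in SOX2 KO, where background may hide a difference. With Dex, Hif3a was higher in SOX2 KO by 1.60 ± 0.32, and by 1.43 without culture 4, which is given as a description since these arrays entered the selection.

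None of the other 9 members passed between genotypes, in vehicle (all adjusted p = 1 by limma) or in Dex (adjusted p from 0.70 to 0.998). The fits called 0.559% of all genes in vehicle and 0.564% in Dex, and without culture 4 they called 0.523% and 0.554%, again with none of the 9. The member with the smallest adjusted p was Hif1an in Dex, at -0.39 ± 0.20 (adjusted p = 0.70 by limma, 95% interval -0.80 to 0.02). Egln3 had the widest interval, from -1.39 to 0.37 in Dex about a difference of -0.51, so its direction is not settled by this fit. Within the first array cluster the Egln3 difference was -0.86 in both treatments, and in the third it was 0.74 in vehicle and 0.31 in Dex. In the second, where culture 4 is the one WT culture, it was -0.46 and -0.08. For Epas1 the difference in Dex was 0.46 ± 0.38, and it was 0.18 in the first cluster, 0.94 in the third and 0.82 in the second, which again rests on culture 4. Over 23 settings of the fit and all contrasts, the smallest adjusted p of the 9 was 0.165.

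**Figure D4:**
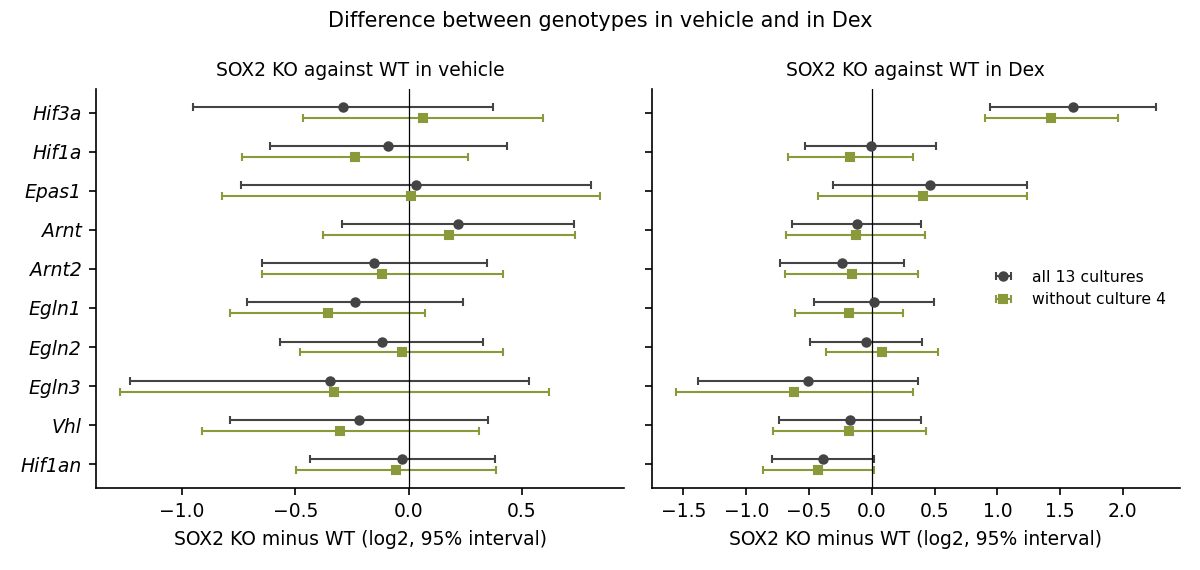
SOX2 KO minus WT (log2) with its 95% interval from limma for each member, in vehicle (left) and in Dex (right), over all 13 cultures (dark circles) and without culture 4 (green squares). All intervals cover 0 except that of Hif3a in Dex (0.94 to 2.26 over all cultures), where the arrays took part in its selection.

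Genes through which HIF acts were then read from 3 further lists. Of 59 listed symbols of HIF target genes 55 were measured, and among the rest Ero1l is an older symbol of the measured Ero1a. None of the 55 passed for Dex in WT or in SOX2 KO, with or without culture 4. The fits called 0% and 0.0513% of all genes (0.169% and 0.251% in the blocked fit that drops culture 4), so a count of 0 among 55 lies near the share over all genes. Their median Dex difference was -0.02 in WT and -0.04 in SOX2 KO, beside 0.003 and -0.02 over all genes. In 52 of the 55 the mean difference was within 0.5 log2 units of 0 in both genotypes (WT without culture 4). Adm, which encodes the vasodilator adrenomedullin, stood furthest up, with 1.00 ± 0.26 in WT without culture 4 (higher in 5 of 5 cultures, adjusted p = 0.34 by limma with the block) and 0.95 ± 0.22 in SOX2 KO (higher in 6 of 7, adjusted p = 0.124). Stc2, a secreted glycoprotein gene, was at -0.65 ± 0.22 in WT (adjusted p = 0.781) and at -0.14 in SOX2 KO. Tpi1, a glycolytic enzyme gene named here after its values were seen, was the third outside 0.5, at -0.77 in SOX2 KO (adjusted p = 0.354 by the same fit). The classic targets that move together under hypoxia, such as Vegfa (-0.33 in WT and -0.15 in SOX2 KO) and Bnip3 (-0.11 and 0.15), did not pass.

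**Figure D5:**
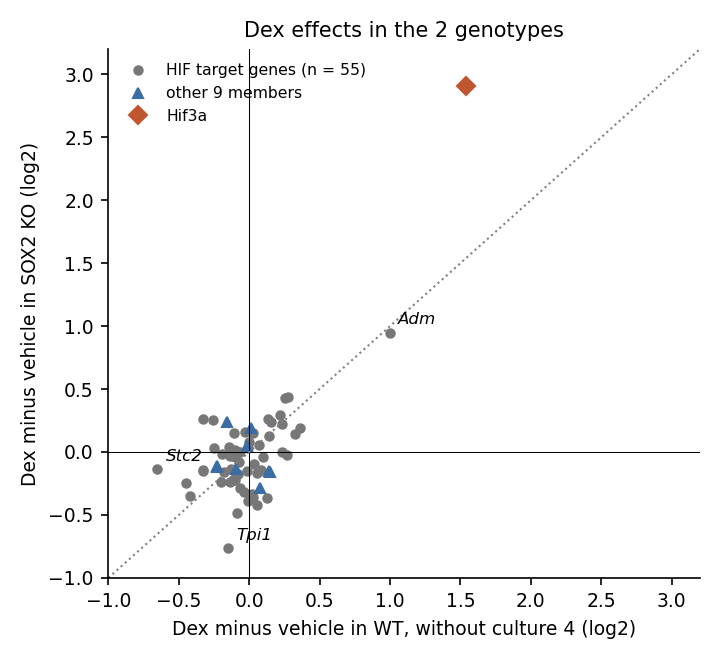
Mean Dex minus vehicle difference (log2) in SOX2 KO against that in WT without culture 4 for 55 HIF target genes (grey), the other 9 members (blue triangles) and Hif3a (orange diamond); the dotted line marks equal differences. Hif3a lies at 1.54 and 2.91, Adm at 1.00 and 0.95, and 52 of the 55 target genes within 0.5 of 0 on both axes.

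Between genotypes, 1 of the 55 target genes passed, where the fits called 0.559% of all genes in vehicle and 0.564% in Dex. Aldoc, a glycolytic aldolase that in brain marks astrocytes and radial glia, fell without SOX2 in vehicle (-1.71 ± 0.22, adjusted p = 3.57e-05 by limma) and in Dex (-1.40 ± 0.22, adjusted p = 0.000803). Its vehicle levels ran from 14.19 to 15.85 in WT and from 12.69 to 13.61 in SOX2 KO, with no overlap, and it passed in 20 of 20 settings in both treatments. Among 6 astrocyte markers, Slc1a2, a glutamate transporter gene, also fell (-2.03 ± 0.35 in vehicle and -2.08 ± 0.35 in Dex, adjusted p = 0.00204 and 0.00153) and the other 5 did not pass; the part of glial identity in the Aldoc value was not tested. Pgm1 and Gys1, which encode enzymes of glycogen metabolism, came next in Dex, at -0.83 ± 0.21 (adjusted p = 0.0658) and -0.88 ± 0.23 (adjusted p = 0.0803). Each passed there in 3 of 20 settings, namely the array cluster as a covariate, array weights and culture 6 left out. These called 2.04%, 2.88% and 0.82% of all genes in Dex. Cp, the ceruloplasmin gene, passed as higher in Dex in 2 settings, and Pdk1 and Pfkp passed as lower in Dex with array weights alone. In vehicle, with array weights alone, Cp passed as higher and Pfkp, Pgm1 and Stc2 as lower, where that fit called 1.94% of all genes. Cp, Pdk1 and Pfkp are named after their values were seen. The median over the target genes was -0.06 in vehicle and -0.03 in Dex, beside -0.03 and -0.06 over all genes.

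Of 25 listed symbols of HIF cofactors and turnover genes 20 were measured. Among the rest, Tceb1 and Tceb2 are older symbols of the measured Eloc and Elob, and Gnb2l1 is an older symbol of Rack1. None of the 20 passed for Dex or between genotypes in the fit to all arrays, beside shares of all genes from 0% to 0.564%. The nearest were Cited1 and Cited2, of which the second encodes a protein that competes with HIF alpha subunits for the coactivator p300. Cited2 ran from 12.40 to 14.32 in WT Dex and from 13.64 to 15.70 in SOX2 KO Dex, a difference of 1.55 ± 0.41 (adjusted p = 0.0809 by limma). It passed in 6 of 20 settings, among them the array cluster as a covariate (1.60 ± 0.31, adjusted p = 0.00349) and quantile normalization (1.61 ± 0.40, adjusted p = 0.0495). Those fits called 2.04% and 0.877% of all genes in Dex, more than the fit to all arrays without them. In vehicle the difference was 1.03 ± 0.41 (adjusted p = 0.598). Cited1 was higher by 1.03 ± 0.37 in vehicle and 1.16 ± 0.37 in Dex (adjusted p = 0.423 and 0.226). It passed in Dex in 3 settings (the array cluster, quantile normalization and culture 3 left out, smallest adjusted p = 0.0272) and in vehicle with culture 3 left out (adjusted p = 0.0485).

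The next list held 16 symbols of relatives of the HIF subunits in the bHLH-PAS family, with the PAS-domain clock genes Per1, Per2 and Per3 counted in. Of these 14 were measured, and Bmal1 and Bmal2 are other symbols of the measured Arntl and Arntl2. None of the 14 passed in the fit to all arrays (0% to 0.564% of all genes). In the blocked fit that drops culture 4, which called 0.169% of all genes in WT and 0.251% in SOX2 KO, Per1 rose in WT (2.35 ± 0.18, adjusted p = 3.35e-06) and in SOX2 KO (1.92 ± 0.15, adjusted p = 2.33e-06). Per2, its clock partner, rose by 1.26 ± 0.20 and 1.22 ± 0.17 in the same fit (adjusted p = 0.0113 and 0.00189). Arntl2, a clock-type beta subunit, fell in WT (-0.93 ± 0.17, adjusted p = 0.0381) and was at 0.07 in SOX2 KO, and the difference of these effects did not pass (1.00 ± 0.23, adjusted p = 1). Its medians over all cultures were 6.32 in WT vehicle, 5.57 in WT Dex, 5.50 in SOX2 KO vehicle and 5.44 in SOX2 KO Dex. In vehicle Arntl2 passed as lower in SOX2 KO in 2 settings, the array cluster as a covariate and array weights (smallest adjusted p = 0.00455 by limma). Those settings called 1.93% and 1.94% of all genes in vehicle. Per1 is also a glucocorticoid reference gene, and these fits share arrays with the values that picked Hif3a.

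The genes whose levels ran most like Hif3a over all 26 arrays were Klf9 (Pearson r = 0.88), Fam107a (0.83), Per1 (0.82), Pip4k2a (0.82) and Map7d2 (0.79). Without culture 4 they were Klf9 (0.88), Per1 (0.85), Fam107a (0.85), Pip4k2a (0.81) and Fkbp5 (0.80), so 4 of the 5 were shared. The points share the split into vehicle and Dex arrays, which alone raises r for any gene that moves with Dex. The Klf9 median went from 9.57 to 11.74 in SOX2 KO, and in WT without culture 4 it went from 9.27 to 11.15. Of the members, Epas1 had the highest r (0.26) and Egln2 the lowest (-0.25).

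Over the 13 Dex minus vehicle differences the genes most like Hif3a were Nfkbia (0.87), Vmn1r2 (0.87), Plagl1 (0.86), Spire1 (0.86) and Cyrib (0.85). This order rests on culture 4. Without it the first 5 were Mindy3 (0.89), Derl3 (0.88), Msmb (0.86), Mccc2 (0.85) and Vmn1r19 (0.85), and 0 were shared. Egln1 went from 0.56 to 0.26 when culture 4 was left out, and Hif1an, at -0.41 and -0.47, was the lowest of the 9 members in both.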

How the data were processed

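Expression was read from 1 deposited table of 26 one-colour arrays. The deposited values were taken as log2 from their range of 2.22 to 19.81, since the base and the authors' normalization are not given in the sources used here. Of 22206 transcript clusters, 19572 carry 1 gene symbol, and 2634 without one stayed out. The row of highest mean was kept for 55 genes with several, which left 19505 genes. A model with 1 mean for each of 4 groups was fitted to all arrays with limma 3.58.1 in R 4.3.3 (lmFit, eBayes), with Benjamini-Hochberg adjustment over all genes, a threshold of 0.05 and no fold minimum; the fit was tested on simulated data. Errors are moderated SE for differences and SD for levels, and for arrays their number limits the precision.

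Members and gene lists were chosen with earlier results of these data known. The text names the members, from each other gene list the genes past the threshold (up to 6 of smallest p) or else the 2 of smallest p, and from the marker lists those past the threshold. It also names the 5 genes most alike Hif3a by Pearson r and the reference genes Fkbp5, Klf9, Tsc22d3, Per1 and Sox2. Vegfa, Bnip3, Mt2, Tpi1, Cp, Pdk1 and Pfkp were added to these after their values were seen.

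The labels number the cultures and say that each animal's cultures were kept separate, so the vehicle and Dex arrays of a number were taken as a pair. After removal of group means they correlated at 0.31 to 0.73, and 22 of 26 arrays matched their own culture best. Alternatives were the culture as a replicate block, each culture left out, the array cluster as a covariate, quantile normalization, median centring, a filter on the 25% of genes of lowest mean, averaged transcript clusters and array weights. The block with cultures 4 and 12 left out was chosen after seeing the data.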

Additional observations from a re-analysis of the deposited data

Results flagged for a closer look

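Samples far from the others of their group were looked for in 60 sets of 6 or 7 values, the levels and the Dex minus vehicle differences of the 10 members. The gap to the nearest other value exceeded Dixon's 95% limit in 9 of them, where chance gives about 1 in 20. Of the 9, 3 lie in culture 4: Hif3a in WT vehicle at 7.28 (the others from 4.83 to 5.74), Hif3a Dex minus vehicle at -1.58 (the others from 1.02 to 1.97), and Egln1 in WT Dex at 12.63 (the others at 13.73 or higher). In the same culture all 17 glucocorticoid reference genes were lower on the array labelled Dex, and the part of labelling in this was not tested.

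Another 3 lie in culture 6. Epas1 Dex minus vehicle was 0.60 there (the others from -0.62 to -0.22), Arnt2 in WT vehicle was 11.03 (the others from 11.65 to 12.00), and Vhl in WT Dex was 8.58 (the others from 9.77 to 10.37). Arnt Dex minus vehicle was -1.56 in culture 12 (the others from -0.25 to 0.26), whose Dex array had the lowest upper quartile of all arrays. Arnt2 in SOX2 KO vehicle was 12.53 in culture 7 (the others from 10.98 to 11.60). Egln2 Dex minus vehicle was -0.60 in culture 3 (the other WT cultures from -0.20 to -0.01).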

How the results depend on the processing

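The 9 members beside Hif3a passed in none of 981 fits over 23 settings. Of their 936 values under alternatives, 881 kept their direction and 55 turned, 15 of 594 in the Dex contrasts and their difference and 40 of 342 between genotypes. The share kept is no measure of stability, since several alternatives cannot move a value. The block and the array cluster leave the Dex differences on all arrays as they are, and the filter on low means moves no value. A culture left out in 1 genotype leaves the Dex difference of the other unchanged. For Dex these were Arnt in SOX2 KO (-0.16; up to 0.08 without culture 12), Egln1 in WT (-0.06; 0.016 without culture 4), Egln3 in WT (0.0083; down to -0.07) and Hif1an in WT (0.07; -0.02 with array weights), and for the difference Arnt2 (-0.09; 0.03), Egln2 (0.07; -0.0074) and Vhl (0.05; down to -0.07), each with 1 culture left out. SOX2 KO minus WT turned as follows. With the array cluster as a covariate, Hif1a was 0.0793 in vehicle and 0.161 in Dex, and Hif1an was 0.0634 in vehicle. With quantile normalization, Hif1a was 0.0603, Arnt 0.00534 and Egln2 0.0385 in Dex, and Hif1an 0.0583 in vehicle. With arrays centred on their median, Hif1a was 0.0714 and Egln2 0.0348 in Dex, and Hif1an 0.00798 in vehicle. With array weights, Hif1a was 0.0296, Egln1 -0.0232 and Egln2 0.202 in Dex, and Epas1 -0.436 and Egln2 0.0786 in vehicle. Leaving out 1 culture at a time gave, in vehicle, -0.427 to 0.0631 for Hif3a (above 0 without culture 4), -0.237 to 0.00167 for Hif1a, -0.309 to 0.217 for Epas1 and -0.095 to 0.0506 for Hif1an. In Dex it gave -0.171 to 0.115 for Hif1a, -0.291 to 0.0917 for Arnt, -0.183 to 0.115 for Egln1 and -0.147 to 0.0809 for Egln2. The cause of these turns was not tested.

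Counts of genes called moved more. For Dex in WT (0 genes) they were 33 with the replicate block and culture 4 left out, 58 with cultures 4 and 12 left out, 15 with array weights, and 0 to 7 with 1 culture left out (7 without culture 4). For Dex in SOX2 KO (10 genes) they were 49 and 66 with the block, 25 with the array cluster, 18 with quantile normalization, 28 with array weights, and 3 to 16 with 1 culture left out (16 without culture 4). For SOX2 KO against WT they were, in vehicle (109) and Dex (110), 376 and 397 with the array cluster, 168 and 171 with quantile normalization, and 378 and 561 with array weights. With 1 culture left out the Dex count was 69 to 160, with 69 without culture 1 and 71 without culture 13. The replicate block on all arrays changed no call of the 9. With 1 vehicle and 1 Dex array per culture it cannot move a Dex estimate, so the Hif3a difference between genotypes of 1.89 was the same by design.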
